A study of Mus musculus with 40 samples.

Results

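The 8 genes described here encode the proteins that start meiotic recombination and the proteins that mark chromosome axes where it is still under way: Spo11, Ankrd31, Mei1, Mei4, Rec114, Hormad1, Hormad2 and Trip13. They were taken by name, all 8 from a table of 55492 genes counted in 40 single cells of mouse testis. The cells came from C57BL/6J mice aged 6 to 8 weeks and carry no engineered allele in the labels. The 20 cells named Pachytene are labelled as pachytene spermatocytes, purified by elutriation, a separation by size and sedimentation. The 20 cells named Metaphase I are spermatocytes pushed from pachytene into the first meiotic division with the phosphatase inhibitor okadaic acid at 4 µM for 5 h. All 40 libraries carry the same protocol text, so stage, drug and time in culture cannot be told apart. Whether the Pachytene cells were also cultured was not given in the sources used here.

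In leptotene and zygotene of meiotic prophase, SPO11 cuts both DNA strands in a topoisomerase-like reaction. REC114, MEI4, MEI1 and ANKRD31 are accessory proteins that assemble on the chromosome axis and are needed for normal numbers or positions of these breaks. HORMAD1 and HORMAD2 carry a HORMA domain, a fold that closes around a partner peptide, and coat axes that are not yet synapsed. There they promote break formation and recruit the checkpoint kinase ATR. As homologs synapse, the AAA+ ATPase TRIP13 strips the HORMAD proteins from the axes. By pachytene they remain mainly on the unsynapsed parts of the X and Y, and most breaks have been made.

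Pachytene libraries held 165048 to 2325564 counts each and Metaphase I libraries 198117 to 1497037. The labels name no animal or culture, so each group is 1 sample: differences are described without a test, and 95% intervals cover counting error only. Levels in counts per 1000000 (CPM) are relative to the total of a cell, or to the summed total of a group. Markers of late spermatocytes, led by the lactate dehydrogenase gene Ldhc, were high in both groups, at a median summed level of 22295 CPM in Pachytene and 22962 CPM in Metaphase I. Of 10 markers of preleptotene to zygotene, Stra8, Prss50 and Ccnb3 were at 0 in every cell, while Meioc and Tex101 had 7851 and 5518 counts in all. The sum of that list had a median of 374 CPM in Pachytene and 355 CPM in Metaphase I. Between the group sums, its 4 measured genes were all higher in Metaphase I, with a median log2 ratio of 0.73, beside -0.00 over all genes. Of 14 spermatid markers, 11 were over 2-fold lower in Metaphase I, where 9.81% of all measured genes were. Metaphase I replicate 13 alone held 33.9% of the Metaphase I counts of Tex101, 38.3% of Ythdc2 and 20.0% of Meioc. Scml2, also measured, had only 14 and 16 counts. In 8 libraries X-linked genes held over 0.3% of the counts, namely Pachytene replicates 2, 3, 7 and 19 and Metaphase I replicates 3, 7, 17 and 19. Of these, 7 had 2039 to 8541 CPM of summed round and elongating spermatid markers, against at most 1563 CPM in the other 32 libraries. The last, Metaphase I replicate 19, had 18300 CPM of summed Sertoli cell markers, against at most 277 CPM elsewhere, although the Sertoli genes Amh, Rhox5, Gata4 and Fshr were at 0 in all cells. Without these 8 libraries only 3 of the 14 spermatid markers were over 2-fold lower in Metaphase I, where 4.13% of all measured genes were. The fold of each compared member is therefore also given without these 8 libraries, and without Metaphase I replicate 13, the deepest cell of its group.

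Promoter sequences are shown for the HORMAD pair and for Ankrd31, because Hormad1 and Ankrd31 followed each other from cell to cell, as described below, whereas Hormad2 did so less closely. Each is the RefSeq window of GRCm38.p6 from 250 bases before to 50 bases after the gene start, 300 bases in all, written in the direction of transcription. Capitals mark an E2F-like motif, GGCGGGAA, or an E-box, CACGTG, searched on both strands. The windows lie at chr3:95559427-95559726 on the plus strand for Hormad1, chr11:4441033-4441332 on the minus strand for Hormad2, and chr13:96748043-96748342 on the plus strand for Ankrd31.
Hormad1: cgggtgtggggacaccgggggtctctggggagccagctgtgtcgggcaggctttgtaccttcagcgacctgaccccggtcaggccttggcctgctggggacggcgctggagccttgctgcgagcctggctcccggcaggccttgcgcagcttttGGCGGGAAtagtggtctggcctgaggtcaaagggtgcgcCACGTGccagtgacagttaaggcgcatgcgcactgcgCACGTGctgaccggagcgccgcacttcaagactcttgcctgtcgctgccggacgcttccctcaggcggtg
Hormad2: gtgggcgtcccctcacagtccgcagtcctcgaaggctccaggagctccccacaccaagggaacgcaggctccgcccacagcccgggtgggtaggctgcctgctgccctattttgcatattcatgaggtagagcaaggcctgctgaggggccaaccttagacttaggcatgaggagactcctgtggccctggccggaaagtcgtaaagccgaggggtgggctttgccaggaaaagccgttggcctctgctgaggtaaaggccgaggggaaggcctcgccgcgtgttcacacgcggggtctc
Ankrd31: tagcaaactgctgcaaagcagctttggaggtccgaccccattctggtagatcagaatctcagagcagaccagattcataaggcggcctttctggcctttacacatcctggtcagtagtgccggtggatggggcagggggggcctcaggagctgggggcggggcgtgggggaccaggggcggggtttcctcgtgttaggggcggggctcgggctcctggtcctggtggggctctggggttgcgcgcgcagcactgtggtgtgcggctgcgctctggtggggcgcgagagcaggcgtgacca
The Hormad1 window held 1 E2F-like motif, which began 96 bases before the start, and 2 E-boxes, which began 57 and 20 bases before it. The E2F-like letters were present in 2.24% and the E-box letters in 7.24% of 27025 RefSeq promoter windows of this length. The Hormad2 and Ankrd31 windows held neither. Promoter windows were found for 7 of the 8 genes, and of the other 4 only Rec114 had a match, 1 E-box that began 19 bases before the RefSeq start. For Rec114 and Mei1 the RefSeq start lies inside the locus counted here and not at its outer end. GC content was high in all 3 printed windows, at 67.3% for Hormad1, 63.3% for Hormad2 and 65.3% for Ankrd31, with 24, 16 and 17 CpG sites. These matches are letters in a window and were not tested as binding sites.

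Spo11, the gene of the break-forming enzyme itself, lies at chr2:172977700-172993576 on the plus strand of GRCm38. It had counts in every one of the 40 cells, long after the stage at which its protein makes breaks. The level in Pachytene cells was 13.7 CPM at its lowest, 124 CPM at the median and 213 CPM at its highest, and in Metaphase I cells it was 1.42, 133 and 222 CPM. The groups overlapped over nearly their whole range. Summed over cells, 2029 counts gave 115 CPM in Pachytene and 1859 counts gave 136 CPM in Metaphase I, a 1.18-fold higher level in Metaphase I (counting interval 1.11 to 1.26). It was 1.12-fold higher (1.05 to 1.20) without the 8 X-linked-rich libraries and 1.14-fold higher (1.07 to 1.22) without Metaphase I replicate 13, so the difference stayed small next to the spread between cells.

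The libraries with low Spo11 were mostly the X-linked-rich ones, which made up 6 of the 8 lowest. In Pachytene replicates 2, 3, 7 and 19 the level was 40.1, 48.3, 45.6 and 13.7 CPM. Metaphase I replicates 3, 7, 17 and 19 had 49.5, 121, 101 and 1.42 CPM, the last being a single count in the library with the high Sertoli marker sum. Among the other 32 libraries Spo11 was more even, from 30.3 CPM upward in Pachytene and from 91.1 CPM upward in Metaphase I. Across Pachytene cells its coefficient of variation was 0.485 and across Metaphase I cells 0.375, and these were 0.325 and 0.236 without the X-linked-rich libraries. The part of spermatid or Sertoli transcripts in these low values was not tested.

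Ankrd31, at chr13:96748272-96910039 on the plus strand, encodes an ankyrin repeat partner of REC114 that directs breaks to the pseudoautosomal region shared by X and Y. It was also counted in all 40 cells. Its level was 5.23 CPM at the lowest, 80.8 CPM at the median and 273 CPM at the highest in Pachytene, and 14.2, 87.0 and 266 CPM in Metaphase I. Both ends of the range were held by Pachytene cells, and the medians were close. Summed levels were 88.4 CPM in Pachytene (1561 counts) and 125 CPM in Metaphase I (1708 counts), a 1.41-fold higher level in Metaphase I (1.32 to 1.51). Metaphase I replicate 13 alone gave 23.3% of the Metaphase I counts, and without it the level was 1.21-fold higher (1.13 to 1.31). Without the 8 X-linked-rich libraries it was 1.38-fold higher (1.29 to 1.48). These libraries made up 5 of its 8 lowest cells. All 8 of these libraries lay at 5.23 to 50.3 CPM in Pachytene and 14.2 to 58.6 CPM in Metaphase I. The cells high for Ankrd31 were a small set in each group. They were Pachytene replicates 5 and 14 at 273 and 247 CPM, and Metaphase I replicates 13, 18, 15, 1 and 14 at 266, 205, 204, 203 and 196 CPM. Pachytene replicate 5 was the shallowest library, with 165048 counts, 45 of them of Ankrd31, and had the lowest late spermatocyte sum of its group at 14317 CPM. Metaphase I replicate 18 had the lowest such sum of all 40 cells, at 8630 CPM, and 277 CPM of Sertoli markers. Their part in the high values was not tested.

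The other break accessory genes gave few counts. Mei1, at chr15:82069996-82126814 on the plus strand, encodes a protein needed for breaks in mouse meiocytes, and it was found in 10 of 20 cells of each group (50%, exact binomial interval 27.2% to 72.8%). Pachytene cells ran from 0 through a median of 0.618 CPM to 22.7 CPM, and Metaphase I cells from 0 through 0.334 CPM to 11.9 CPM. After thinning every cell to 340000 counts, which left 19 Pachytene and 17 Metaphase I cells, the shares were 47.4% and 29.4%. Only 2 Pachytene cells, replicates 2 and 11 at 22.7 and 15.4 CPM, lay above the highest Metaphase I cell. The summed counts were 76 and 23, or 4.30 and 1.68 CPM, which is 2.56-fold lower in Metaphase I (1.59 to 4.29). On the log2 scale with a pseudocount of 1 CPM the ratio was -0.99, just short of 2-fold. It passed 2-fold with TMM scaling, at -1.02, and was at -0.28 as the ratio of medians over cells. Without the 8 X-linked-rich libraries the level was 1.78-fold lower (1.03 to 3.20), and without Metaphase I replicate 13 it was 2.39-fold lower. With these libraries and replicate 13 all left out it was 1.63-fold lower, and the interval of 0.928 to 2.96 includes 1.

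Rec114 and Mei4 encode subunits of the same axis-bound break complex, and neither gave a level that could be compared between the groups. Mei4, at chr9:81863670-82206007 on the plus strand, had no count in any of the 40 cells. A count of 0 allows up to 0.170 CPM in the Pachytene sum and 0.219 CPM in the Metaphase I sum, at 3 counts per group. Rec114, at chr9:58652850-58743964 on the minus strand, had 12 counts in 4 Pachytene cells and 11 counts in 2 Metaphase I cells. Of these 23 counts, 9 were in Pachytene replicate 19 and 9 in Metaphase I replicate 3, and 19 in all were in the X-linked-rich libraries. Rec114 shares 344 exon bases with Nptn, a cell adhesion gene on the opposite strand. Nptn had 346 counts in the 8 X-linked-rich libraries and 14 in the other 32. Without a stated strand setting, counts from the shared bases cannot be assigned to one of the pair.

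**Figure D1:**
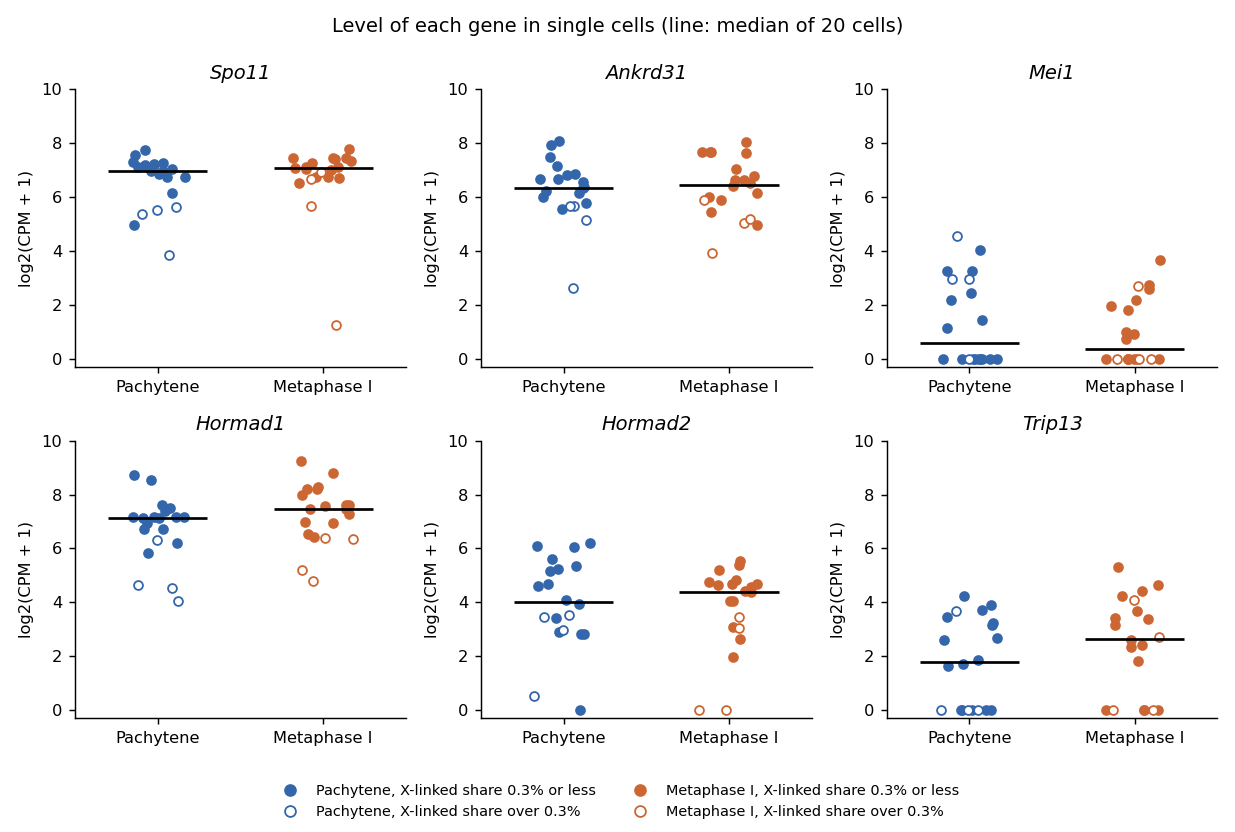
Level of each gene in each cell as log2(CPM + 1), with Pachytene and Metaphase I side by side; points are single cells, open points are the 8 libraries with over 0.3% X-linked counts, and lines are medians of 20 cells. Spo11, Hormad1 and Ankrd31 had counts in all 40 cells, Mei4 had none, and most open points sit low for Spo11, Hormad1, Hormad2 and Ankrd31, with 121 and 101 CPM of Spo11 as exceptions.

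Hormad1, at chr3:95559677-95587671 on the plus strand, encodes the HORMA protein required for break formation, synapsis and the checkpoint response to unsynapsed axes. It was counted in all 40 cells. Pachytene cells had 15.7 CPM at the lowest, 139 CPM at the median and 420 CPM at the highest, and Metaphase I cells 26.9, 176 and 609 CPM. Most cells of the groups overlapped, with 2 Metaphase I cells above the highest Pachytene cell and 3 Pachytene cells below the lowest Metaphase I cell. Summed levels were 138 CPM (2446 counts) and 238 CPM (3268 counts), a 1.72-fold higher level in Metaphase I (1.63 to 1.81). The value was 1.70-fold (1.61 to 1.79) without the 8 X-linked-rich libraries. The 4 measured preleptotene to zygotene markers had a median log2 ratio of 0.73 with all cells, and the 3 measured without these libraries had 1.09. In each case 2 genes were over 2-fold higher. Meioc, the largest part of the list, had close cell medians of 238 CPM in Pachytene and 267 CPM in Metaphase I. The cell median of the list sum was 374 CPM in Pachytene and 355 CPM in Metaphase I, the other direction. Both log2 ratios include Metaphase I replicate 13, and the part of these markers in the Hormad1 difference was not tested.

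A few cells carried much of the Hormad1 signal in each group. Metaphase I replicates 13 and 15 had 609 and 440 CPM, and Pachytene replicates 14 and 16 had 420 and 373 CPM. Metaphase I replicate 13 gave 911 of the 3268 Metaphase I counts. Without it the level was 1.39-fold higher (1.32 to 1.48), whereas omission of Pachytene replicate 16 gave a log2 ratio of 0.95 in place of 0.78. At the low end, the X-linked-rich libraries were 6 of the 8 lowest, with 15.7, 22.1, 79.6 and 23.9 CPM in Pachytene replicates 2, 3, 7 and 19. In Metaphase I replicates 3, 7, 17 and 19 Hormad1 had 26.9, 35.3, 80.6 and 83.8 CPM. The library with the high Sertoli marker sum thus had 59 counts of Hormad1 beside its single count of Spo11.

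Hormad2, at chr11:4345814-4441105 on the minus strand, encodes the second meiotic HORMAD, whose loading on axes depends on HORMAD1. It was found in 19 Pachytene and 18 Metaphase I cells, in each case together with Hormad1, which had counts in all 40 cells. Levels ran from 0 through a median of 15.3 CPM to 72.7 CPM in Pachytene, and from 0 through 20.1 CPM to 45.1 CPM in Metaphase I. The highest cells were of the Pachytene group: 4 of them, replicates 5, 1, 12 and 16 at 72.7, 67.3, 65.7 and 48.0 CPM, lay above every Metaphase I cell. The sums were nevertheless close, at 20.8 CPM (367 counts) and 20.4 CPM (279 counts). The fold was 0.979, and its interval of 0.835 to 1.15 includes 1. It was 0.922 (0.783 to 1.08) without the 8 X-linked-rich libraries, which had 0 to 7 counts each, and 0.981 (0.832 to 1.16) without Metaphase I replicate 13. The medians and the sums thus differ in order, and the ratio of the medians on the log2 scale was 0.38.

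Trip13, at chr13:73911347-73937784 on the minus strand, encodes the ATPase that removes HORMAD proteins from synapsed axes and also opens the HORMA domain of MAD2 in the spindle checkpoint. It was detected in 12 Pachytene cells (60%, exact binomial interval 36.1% to 80.9%) and 14 Metaphase I cells (70%, 45.7% to 88.1%), and in 57.9% and 76.5% of the cells thinned to 340000 counts. Pachytene cells ran from 0 through a median of 2.45 CPM to 17.9 CPM, and Metaphase I cells from 0 through 5.29 CPM to 38.7 CPM. In Metaphase I, 3 cells lay above every Pachytene cell, replicates 13, 18 and 16 at 38.7, 23.8 and 20.5 CPM. The summed counts were 76 and 145, or 4.30 and 10.6 CPM. That is a 2.46-fold higher level in Metaphase I (1.85 to 3.29), and 2.22-fold (1.64 to 3.02) without the 8 X-linked-rich libraries. Metaphase I replicate 13 held 58 of the 145 counts, and without it Trip13 was 1.66-fold higher (1.20 to 2.28). With all 9 libraries left out it was 1.39-fold higher, and the interval of 0.982 to 1.97 includes 1. With equal weight for each cell the log2 ratio was 0.72 in place of 1.13, under 2-fold.

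**Figure D2:**
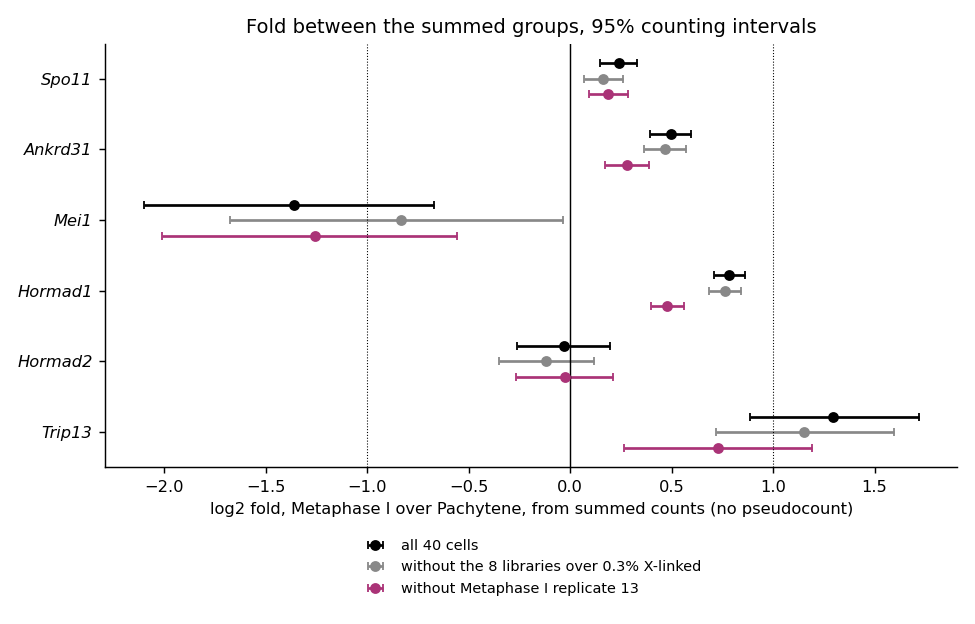
Fold of Metaphase I over Pachytene from summed counts on a log2 axis without a pseudocount, for the 6 genes with at least 20 counts in each group; bars are 95% counting intervals, dotted lines mark 2-fold, and colours show all 40 cells, the 32 cells without the X-linked-rich libraries, and all but Metaphase I replicate 13. Trip13 moves from 2.46-fold to 1.66-fold without that cell, and the Hormad2 intervals include no difference.

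Read as a group, 7 of the 8 genes had at least 20 summed counts, and 1 of them, Trip13, was over 2-fold higher in Metaphase I on the ratio with a pseudocount of 1 CPM. None was over 2-fold lower. Among all 16174 genes measured in the same way, 8.49% were over 2-fold higher and 9.81% over 2-fold lower. The median log2 ratio of the 7 was 0.24, with 5 above 0 and 2 below, beside a median of -0.00 and quartiles of -0.40 and 0.38 over all genes. Rec114 counts among the 5, although its counts may belong to Nptn, and without it the median of the 6 was 0.36, with 4 above 0 and 2 below. A count of 1 in 7 is close to that background and says nothing particular of these genes. Without the 8 X-linked-rich libraries 6 of the genes were measured, 1 was over 2-fold higher and the median was 0.31. The background was then 6.32% higher and 4.13% lower, with a median of 0.03. Without Metaphase I replicate 13 no member was over 2-fold higher.

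Spo11, Hormad1, Hormad2, Trip13 and Ankrd31 were detected together in 12 of 20 Pachytene cells and 13 of 20 Metaphase I cells. As Spo11, Hormad1 and Ankrd31 had counts in all 40 cells, these numbers reflect only where Trip13 and Hormad2 were detected. The levels of the members followed each other to very different degrees. The closest pair was Hormad1 and Ankrd31, with a Spearman correlation of CPM of 0.70 over 40 cells, 0.52 within Pachytene and 0.87 within Metaphase I. It was 0.52 over the 32 cells without the X-linked-rich libraries and 0.72 over the 36 thinned cells. Cells share the library preparation and a common total, so these values are descriptions and no p is given.

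Spo11 was less tied to the axis gene Hormad1 once the X-linked-rich libraries were set aside. The Spearman value of this pair was 0.54 over 40 cells and 0.23 over 32. For Spo11 and Ankrd31 it was 0.57 and 0.34. Hormad1 and Hormad2, which act together on unsynapsed axes, reached 0.30 over 40 cells and -0.00 over 32. Spo11 and Hormad2 went from -0.02 to -0.42 in the same step. Hormad1 and its remodeler gene Trip13 held about the same value, 0.40 and 0.44.

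**Figure D3:**
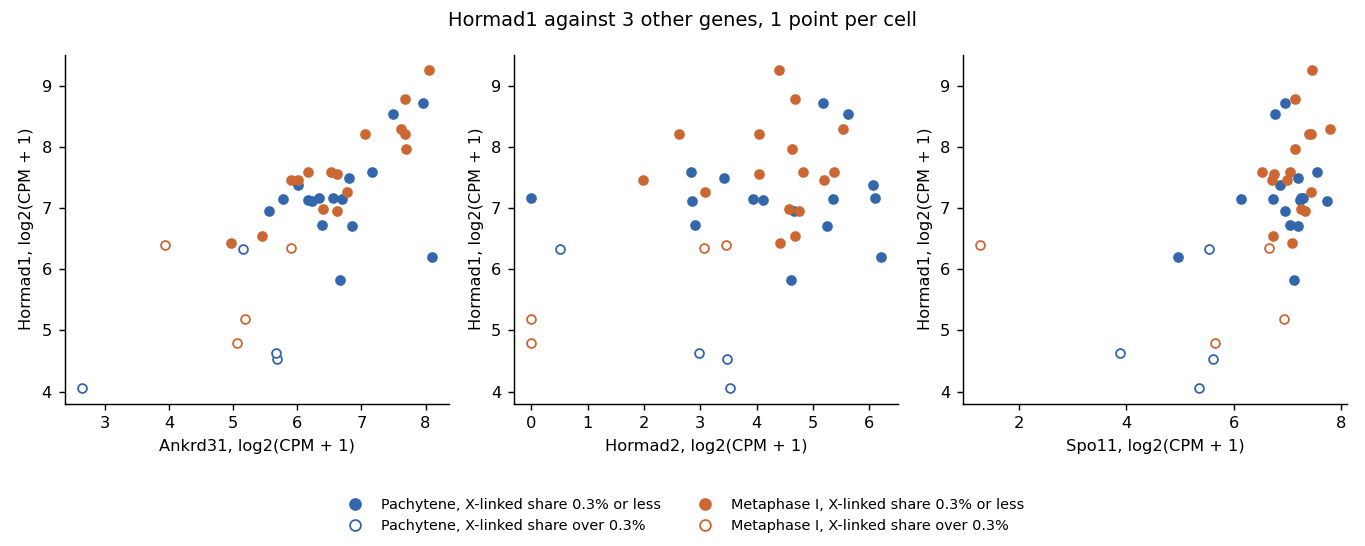
Hormad1 against Ankrd31, Hormad2 and Spo11, all as log2(CPM + 1), with 1 point per cell, colours for the groups and open points for the 8 X-linked-rich libraries. Hormad1 follows Ankrd31 over both groups (0.70 over 40 cells), and much of its relation to Spo11 comes with the open points (0.54 with them, 0.23 without).

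The genes most like each member across the 40 cells were sought among 7893 genes with at least 100 counts and a count in at least 20 cells. For Ankrd31 they included Sycp2, an axis component of the synaptonemal complex, at a Spearman value of 0.89, and the kinetochore gene Zwilch at 0.89. Without the X-linked-rich libraries these had 0.86 and 0.85. For Hormad1 they were the alanyl-tRNA synthetase gene Aars at 0.85, Ccdc77 at 0.85 and Mphosph8, a reader of methylated histone H3, at 0.84. Below many other genes, Ankrd31 stood at rank 150 for Hormad1, and at rank 551 without the X-linked-rich libraries. For Spo11 the closest genes were Tfdp1, the dimer partner of E2F factors, at 0.74, Tchp at 0.72 and Mrgbp at 0.72. Without the X-linked-rich libraries Tfdp1, Tchp and Mrgbp had 0.57, 0.54 and 0.54 with Spo11, and Aars, Ccdc77 and Mphosph8 had 0.73, 0.73 and 0.72 with Hormad1. Hormad2 was closest to the topoisomerase gene Top3a at 0.68, Rabgap1 at 0.67 and Cnnm4 at 0.67, and Trip13 to Azin1 at 0.65, Ganc at 0.63 and the splicing factor gene Sf3a1 at 0.58. Over the 32 cells Top3a, Rabgap1 and Cnnm4 had 0.54, 0.56 and 0.60 with Hormad2, and Azin1, Ganc and Sf3a1 had 0.71, 0.50 and 0.64 with Trip13.

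Markers of earlier prophase moved with some members. The summed level of the preleptotene to zygotene marker list ran from 62.7 to 1557 CPM in Pachytene and from 55.4 to 1363 CPM in Metaphase I. Of this sum 56.9% came from Meioc and most of the rest from Tex101, and 4 of its 10 genes had at least 20 counts. Its Spearman correlation with Ankrd31 was 0.84 over 40 cells and 0.74 over the 32 without the X-linked-rich libraries. With Hormad1 it was 0.69 and 0.47, and with Spo11 0.49 and 0.17. The strand exchange gene Dmc1, which acts in early prophase on the breaks SPO11 makes, had no count in the Pachytene cells and 4 in the Metaphase I cells.

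In the 32 libraries Ankrd31 was lower where the late spermatocyte sum was higher, with a Spearman value of -0.73. Over all 40 cells the value was -0.12. For Hormad1 these were -0.46 and 0.11. Of that sum 80.7% was Ldhc, so these values need not hold for the other genes of the list. The spermatogonia sum, of which 74.2% was Dazl, had 0.36 with Ankrd31 and 0.15 with Hormad1 over 40 cells, and 0.80 and 0.53 over the 32. With the spermatid sum, Hormad1 had -0.62 over 40 cells and -0.33 over 32, and Spo11 had -0.33 and 0.08. The part of these other transcripts in the levels of the members was not tested.

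**Figure D4:**
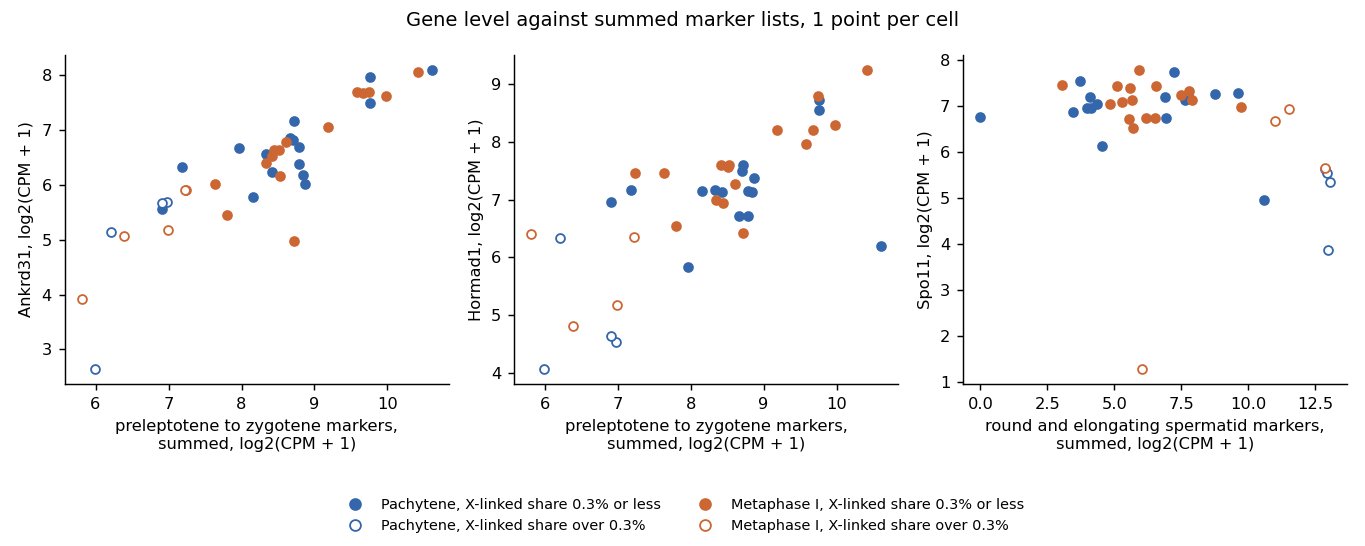
Ankrd31 and Hormad1 against the summed preleptotene to zygotene markers, and Spo11 against the summed round and elongating spermatid markers, on log2(CPM + 1) axes with 1 point per cell; open points are the 8 X-linked-rich libraries. Ankrd31 is higher where the marker sum is higher in both groups (0.84 over 40 cells), and 1 open point, Metaphase I replicate 19, has Spo11 at 1.42 CPM with few spermatid markers.

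Other genes of the same pathway were read from 5 lists, beside the background of 8.49% of all genes over 2-fold higher and 9.81% lower. The list named break formation partners holds the kinase gene Atm, which limits break number, and also a reader of histone marks. Of its 8 measured genes, 1 passed 2-fold upward in Metaphase I and 0 downward, and the median log2 ratio was 0.16. This was Zcwpw1, a reader of the histone marks that PRDM9 writes, with 72 and 152 counts, 2.72-fold higher (2.04 to 3.65) 1.79-fold without Metaphase I replicate 13 and 2.57-fold without the 8 X-linked-rich libraries. Prdm9 itself, with 6 and 5 counts, was below the 20 needed to be measured. Of 5 other genes for HORMA domain proteins and the TRIP13 adaptor, 1 was over 2-fold higher and 0 lower, with a median of 0.30. It was the spindle checkpoint gene Mad2l1, with 280 and 466 counts, 2.14-fold higher (1.84 to 2.50) 1.76-fold without replicate 13 and 2.01-fold without the 8 libraries, where the ratio with its pseudocount was under 2-fold.

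Of 12 measured axis and synaptonemal complex genes, 1 was over 2-fold higher and 0 lower, with a median of 0.23. It was 4930447C04Rik, also named Six6os1, which encodes a central element protein, at 172 and 315 counts, 2.36-fold higher (1.95 to 2.86) and 1.92-fold without Metaphase I replicate 13. Without the 8 X-linked-rich libraries 3 of 11 were over 2-fold higher, where 6.32% of all genes were, with log2 ratios of 1.40 for 4930447C04Rik, 1.10 for the transverse filament gene Sycp1 and 1.07 for the central element gene Syce2. Metaphase I replicate 13 was kept in that set. Over the 20 Metaphase I cells it held 42.2% of the counts of Sycp1, 29.4% of Syce2 and 27.6% of 4930447C04Rik. Its part in these 3 ratios was not tested. Sycp1 at 1.68-fold (1.61 to 1.76) over all 40 cells was 1.09-fold without replicate 13. Syce2, with 758 and 734 counts, was not over 2-fold higher over all 40 cells. Of its Pachytene counts, 43.7% were in replicate 7, 1 of the 8 libraries left out.

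Among 22 measured genes of break end processing and strand invasion, 2 were over 2-fold higher and 1 lower, with a median of 0.25. Rad54l, a motor protein of strand exchange, had 60 and 169 counts, 3.63-fold higher (2.69 to 4.96). Mcmdc2, an MCM-like gene needed for strand invasion repair, had 41 and 99 counts, 3.11-fold higher (2.14 to 4.59). Both stayed over 2-fold without Metaphase I replicate 13, at 2.87-fold and 2.61-fold, and without the 8 X-linked-rich libraries, at 3.55-fold and 2.74-fold. Only 1 gene of the list was over 2-fold higher with both omissions together, with thinning, or with the mean CPM per cell. Mcmdc2 had counts in 5 Pachytene and 8 Metaphase I cells, and Rad54l in 13 and 15. The lower gene was Tex15, needed to load the recombinases, at 935 and 288 counts and 2.52-fold lower (2.21 to 2.89). Of its Pachytene counts 58.9% were in replicate 7, and without the 8 X-linked-rich libraries only 10 and 18 counts were left.

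Of 15 measured genes of signalling on unsynapsed chromatin, the pathway that HORMAD proteins feed through ATR, 1 was over 2-fold higher and 0 lower, with a median of 0.31. This was the checkpoint kinase gene Chek2, with 4 and 21 counts, 6.76-fold higher (2.28 to 27.1), and 61.9% of its Metaphase I counts were in replicate 1 alone. The 5 list medians, from 0.16 to 0.31, lay near the 0.24 of the members and within the quartiles over all genes.

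**Figure D5:**
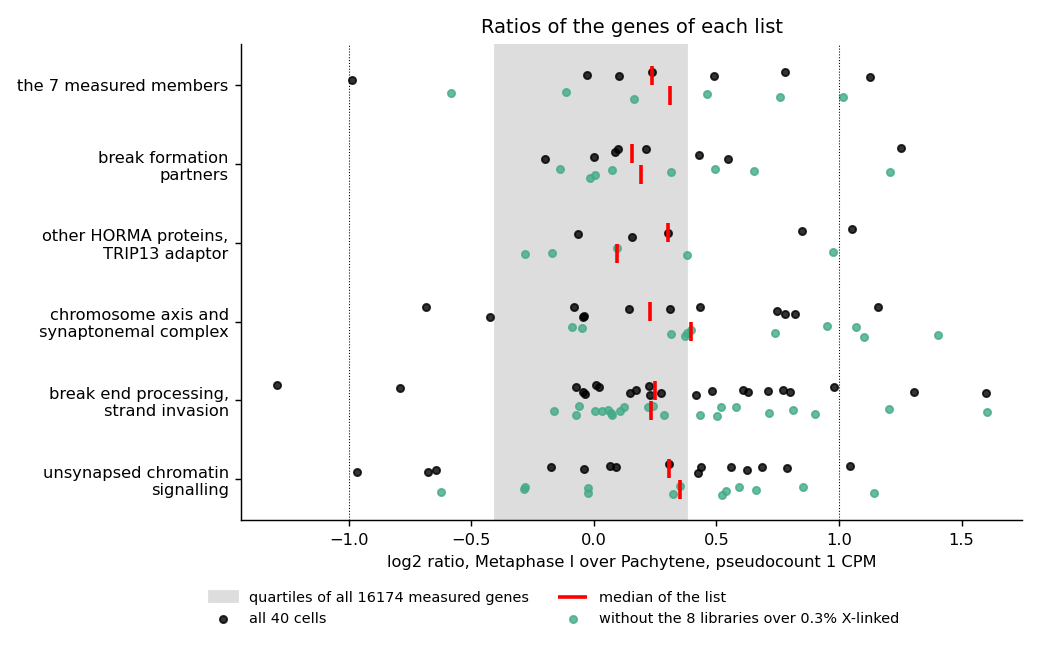
Log2 ratio of the summed levels, Metaphase I relative to Pachytene and pseudocount 1 CPM, for each measured gene of the members and of 5 pathway lists, in all 40 cells and without the 8 X-linked-rich libraries; dotted lines mark 2-fold and the grey band the quartiles over all 16174 measured genes. The list medians lie between 0.16 and 0.31 in all 40 cells, and Tex15 is the one gene of these lists over 2-fold lower there.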

How the data were processed

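Transcripts were counted in 40 single testis cells. Libraries were made by a modified STRT-seq method, per the labels' protocols, with oligo(dT) priming, 20 PCR cycles and enrichment of 3' ends, so levels are compared within a gene and not between genes. The authors deposited whole-number counts per gene with exon coordinates; UMI-tools, STAR, featureCounts and GRCm38 are named in the submitters' processing notes. The strand setting, and whether counts are reads or molecules, were not given in the sources used here, and the intervals are too narrow if counts are reads. Of the 55492 genes, 52265 have the same symbol and span in GENCODE M21.

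Counts were summed per group and divided by the summed total (CPM). The log2 ratio used a pseudocount of 1 CPM; a gene was measured at a summed count of at least 20, and over 2-fold was the threshold. Folds have exact conditional binomial intervals, shares exact (Clopper-Pearson) intervals, both at 95%. No test was made. No 2 columns were identical, and the lowest chi-square per degree of freedom between cells of a group was 2.69, so no cell was counted as a copy of another. Python 3.11.15 (pandas 2.3.3, scipy 1.17.1) was used, with edgeR 4.0.16 and DESeq2 1.42.0 for alternative scaling only, and the code was tested on simulated data. The members and lists were chosen with earlier results of these data known. Named genes were the 8 members, the list genes past 2-fold, and the 3 genes most correlated with each member of 100 or more counts, leaving out unnamed models, mitochondrial and ribosomal protein genes. Of these genes 1 is not reported here. The list genes Prdm9, Dmc1, Sycp1 and Syce2, and the marker genes, were named after their values were seen. Alternatives covered scaling, weighting of cells, pseudocount, count minimum, thinning to 340000 counts and omission of cells.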

Additional observations from a re-analysis of the deposited data

How the results depend on the processing

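Among the members only Hormad2 and Rec114, whose folds over all 40 cells had intervals that include 1, changed sign under an alternative. Hormad2 did so with the ratio of medians, and Rec114 with the mean CPM per cell (-0.35) and with thinning (-0.66). Both also did so when single cells were left out. No paired analysis was possible because each group is 1 sample of 20 cells, the replicate numbers only name cells, and no result comes from a test. The values below are log2 ratios, or numbers of genes over 2-fold, and the cause of each difference was not tested. With the mean CPM per cell, Hormad1 was at 0.50, Hormad2 at -0.40, Trip13 at 0.72 and Ankrd31 at 0.083. The numbers higher were then 0 for the members, 0 for break formation partners, 0 for the other HORMA genes, 1 for end processing (0 lower) and 0 for unsynapsed signalling. With the ratio of medians over cells, Spo11 was at 0.11, Hormad1 at 0.34, Hormad2 at 0.38, Trip13 at 0.87, Mei1 at -0.28 and Ankrd31 at 0.10. Members, partners, HORMA, axis and signalling genes then had 0 higher, partners 1 lower and end processing 0 lower. A pseudocount of 10 CPM gave Trip13 0.52 and Mei1 -0.29, and 0 genes higher among the members and in each of the 5 lists. Thinning gave Spo11 0.089, Hormad1 0.62, Hormad2 -0.39, Trip13 0.62 and Ankrd31 0.20. The members then had 0 higher and 1 lower, HORMA, axis and signalling genes 0 higher, and end processing 1 higher and 2 lower. TMM scaling gave 1 lower among the members, which was Mei1, and 1 lower in signalling. Without the deepest cell of each group Spo11 was at 0.061, Hormad1 at 0.39, Trip13 at 0.45 and Ankrd31 at 0.15, with 0 higher among members, partners and HORMA genes and 1 higher and 0 lower in end processing. Without the X-linked-rich libraries Mei1 was at -0.58, Hormad2 was detected in 100% of Metaphase I cells, HORMA genes had 0 higher, axis genes 3 higher and end processing 0 lower. A minimum of 100 counts left 0 signalling genes higher. Chosen after seeing the data was the omission of these libraries together with Metaphase I replicate 13. It gave Spo11 0.13, Hormad1 0.47, Trip13 0.41, Mei1 -0.50 and Ankrd31 0.26, with 0 higher among members, partners and HORMA genes and 1 higher and 0 lower in end processing. Leaving out each of the 40 cells in turn gave 0.11 to 0.31 for Spo11, 0.48 to 0.95 for Hormad1, -0.22 to 0.10 for Hormad2, 0.62 to 1.25 for Trip13, -1.26 to -0.81 for Mei1, -0.54 to 0.62 for Rec114 and 0.28 to 0.61 for Ankrd31. The numbers higher ran from 0 to 1 for members and partners, 0 to 2 for HORMA, axis and signalling genes, and 2 to 4 for end processing. The numbers lower ran from 0 to 1 for members and axis genes and 0 to 2 for end processing and signalling, and were 0 for partners and HORMA genes. Mei4, Rec114, Mei1 and Trip13 had under 250 summed counts each, which limits what can be said of them. The part of depth in these low counts was not tested.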
